A study of Mus with 17 samples.

Results

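The growth hormone, STAT5 and insulin-like growth factor axis was described in whole mouse liver through 10 genes taken by symbol from a count table of 24940 genes: Ghr, Stat5b, Socs2, Cish, Bcl6, Igf1, Igfals, Igfbp1, Igfbp2 and Igfbp3. All 10 were present and all 10 passed the low count filter, among 13204 genes tested. Each of 17 male C57BL6/JBomTac mice gave 1 library. Of these mice, 8 ate western diet and drank fructose water (42 g/L), and 9 of the same age ate standard chow and drank pure water, over 52 weeks; per the labels the first regimen models fatty liver disease with inflammation. All mice were fasted overnight before death; the labels name no transgene and no agent other than the diet and fructose, and give neither the hour of death nor any hormone measurement. The comparison asks how the liver transcripts of this axis differed between the diets, and log2 differences are western diet minus chow.

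Growth hormone is secreted by the pituitary in pulses and binds its receptor on hepatocytes, where the kinase JAK2 activates the transcription factor STAT5b. STAT5b induces its own inhibitors Socs2 and Cish, the secreted growth factor Igf1 and its partner Igfals, and in rodents the sex-specific pattern of pulses sets which liver genes are higher in males or in females. The binding proteins hold IGF-I in the circulation: IGFBP3 forms a long-lived complex with IGF-I and the product of Igfals, whereas the liver output of IGFBP1 is repressed by insulin and rises on fasting.

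Of the 10 genes, Igfals and Igfbp2 fell, Igfbp3 rose, and 7 did not pass the test. Igfals was 1.62-fold lower and Igfbp2 1.42-fold lower on western diet, and Igfbp3 was 1.30-fold higher. This was 30.0% of the 10 genes, below the 48.4% of all tested genes that passed in either direction; 24.8% of all tested genes rose and 23.6% fell (quasi-likelihood test of edgeR, adjusted by Benjamini-Hochberg over all 13204 genes, threshold 0.05). The median log2 difference of the 10 genes was −0.17, against −0.0091 over all tested genes, and 3 of the 10 were higher and 7 lower. The diets overlapped in all 10 genes, whereas all western diet livers lay above all chow livers in 6.98% of tested genes and below them in 5.05%, 12% in all. None of the 10 passed with a difference of at least 2-fold, against 8.96% of tested genes upward and 1.14% downward. Without 4 libraries with little transcript of the clock gene Dbp, described below, 2 of the 10 rose and 3 fell. In that fit, chosen after the values were seen, 3210 of 13310 tested genes rose and 2705 fell.

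**Figure D1:**
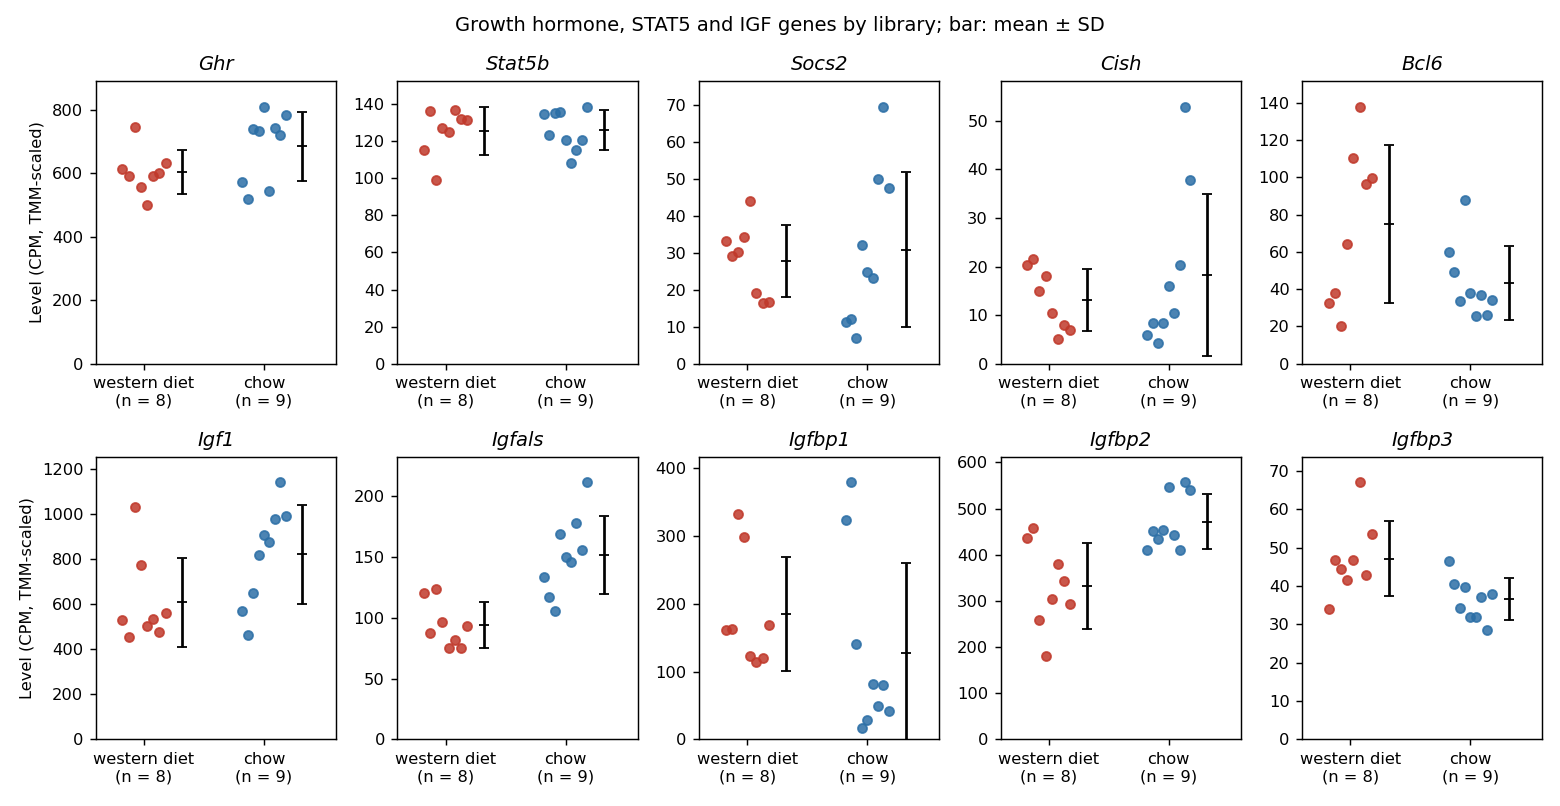
Level of each of the 10 genes in CPM (counts per 1000000 counts of the library, scaled with TMM factors, linear axis from 0), 1 point per mouse, with 8 western diet mice at left and 9 chow mice at right in each panel; the bar beside the points is the mean ± SD, cut at 0. The diets overlap in every gene, Stat5b is level across the mice, and Igfbp1, Cish and Socs2 spread most widely among the chow mice.

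The library totals were 3604212 to 9071908.5 counts, and the lowest deposited value of any of the 10 genes was 22.5 counts, for Cish, so none was near the limit of detection. The labels name each library as a separate sample, and nothing in them describes pooling. The hepatocyte list, which included Alb and Hnf4a, had all 12 markers tested, none at 0 in any library, and summed to 15346 to 25208 CPM on western diet and 19399 to 26674 CPM on chow; 3 of the 12 fell and none rose in edgeR, but 7 fell without western diet replicate 1, 6 without western diet replicate 3 and 1 without the 4 libraries low in Dbp. Of the other cell types, 9 of 12 Kupffer cell and macrophage markers rose and 2 fell, 10 of 12 stellate cell and fibroblast markers rose, 7 of 9 bile duct markers rose, and 2 of 12 sinusoidal endothelial markers rose while 4 fell. The shares called were 91.7%, 83.3%, 77.8% and 50% in these lists and 25% in the hepatocyte list, against 48.4% of all tested genes. Pancreatic acinar transcripts summed to 5215 CPM in western diet replicate 5 and 16235 CPM in chow replicate 2, against 168 to 622 CPM in the other libraries. In bulk tissue, fewer cells of a type and less RNA per cell cannot be told apart.

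The receptor and the transducer showed no difference past the threshold. Ghr, the growth hormone receptor, whose symbol also covers the shorter transcript of the soluble binding protein in mice, had 499, 597 and 745 CPM (lowest, median and highest) on western diet, against 518, 733 and 810.1 CPM on chow. Its log2 difference was −0.18 ± 0.098 (± SE, 95% interval −0.39 to 0.024, edgeR adjusted p = 0.136). Western diet replicate 3 held the highest Ghr of its diet, and 1 of 8 western diet livers lay above the chow median. Stat5b, the main STAT5 of hepatocytes, had 98.9, 129 and 137 CPM on western diet, against 108, 123 and 139 CPM on chow. The mean levels of Stat5b were 125 ± 12.8 CPM and 126 ± 10.7 CPM (SD, n = 8 and 9), and the 95% interval of the log2 difference ran from −0.15 to 0.14 (edgeR adjusted p = 0.965). The ranges of the diets nearly coincided, and the sign of the difference turned positive with library size alone (0.13) and without the 4 libraries low in Dbp (0.028).

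The STAT5 feedback genes varied several-fold between mice on the same diet, and no diet difference in them could be shown. Socs2, an inhibitor that binds the activated receptor, had 16.4, 29.8 and 44.0 CPM on western diet, against 6.95, 24.9 and 69.6 CPM on chow. The chow range enclosed the whole western diet range, and the log2 difference was −0.15 ± 0.39 (95% interval −0.98 to 0.67, edgeR adjusted p = 0.771). Cish, a related inhibitor that is among the fastest growth hormone responses, had 5.13, 12.6 and 21.6 CPM on western diet, against 4.24, 10.4 and 52.9 CPM on chow. Its log2 difference was −0.51 ± 0.48 (95% interval −1.52 to 0.51, edgeR adjusted p = 0.408), and the 2 highest livers were both chow. Without chow replicate 8 it was −0.13 and without chow replicate 9 −0.29. The highest western diet library held 4.202 times the lowest for Cish and 2.68 times for Socs2, compared with 12.5 and 10.02 times between the chow libraries. The SD of log2 CPM within chow exceeded that of 98.7% of tested genes for Socs2 and 98.99% for Cish; whether the spread differed between the diets was not tested.

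Bcl6, a repressor that growth hormone lowers and that in mouse liver represses female-biased genes, spread widely among the western diet livers. It had 20.5, 80.3 and 138 CPM on western diet, against 25.7, 36.7 and 87.9 CPM on chow. Western diet replicates 1, 2 and 3 lay at 20.5 to 37.8 CPM, replicate 3 below the lowest chow liver and the others within the chow range, and the remaining 5 at 64.3 to 138 CPM. The log2 difference was 0.80 ± 0.35 (95% interval 0.047 to 1.55), with an unadjusted p of 0.0385 and an adjusted p = 0.0736 in edgeR. It passed without western diet replicate 1 (0.90, adjusted p = 0.0427), without western diet replicate 3 (0.94, adjusted p = 0.0234) and without chow replicate 4 (0.99, adjusted p = 0.0262), in edgeR each time. Chow replicate 4 was the highest chow liver.

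Igf1, the growth factor that liver releases in response to growth hormone, was lower in most western diet livers but did not pass. It had 455, 532 and 1030.0 CPM on western diet, against 461, 877 and 1140 CPM on chow. Only western diet replicate 3 exceeded the chow median, while chow replicates 1, 2 and 3, at 461 to 649 CPM, lay among the western diet livers. The log2 difference was −0.43 ± 0.19 (95% interval −0.83 to −0.042, unadjusted p = 0.0318, edgeR adjusted p = 0.0629). The call depended on single libraries in edgeR: the adjusted p was 0.00646 without western diet replicate 3, 0.0469 without western diet replicate 4, 0.0427 without chow replicate 1 and 0.0196 without chow replicate 2. It was also 0.0402 without both libraries that carried pancreatic transcripts, and 0.0413 in DESeq2.

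Igfals, which encodes the acid-labile subunit that stabilises the circulating IGF-I complex, gave the largest called difference of the 10 genes. It had 74.8, 90.5 and 124 CPM on western diet, against 106, 150 and 211 CPM on chow. No western diet liver reached the chow median, and the ranges overlapped through western diet replicates 1 and 3 and chow replicates 2 and 3. The mean was 94.2 ± 18.9 CPM on western diet and 152 ± 32.2 CPM on chow (SD, n = 8 and 9), a log2 difference of −0.69 ± 0.13 (edgeR adjusted p = 2.79e-04). With any single library left out, Igfals still passed, at −0.76 to −0.62. Beside it, 3 of 12 hepatocyte markers fell and 9 did not pass, 25% called against 48.4% of all tested genes, of which 23.6% fell. Alb fell by 0.38, Hnf4a by 0.39 and Serpina1a by 0.27 on the log2 scale (edgeR adjusted p = 0.0116, 2.85e-04 and 0.0445). Of these 12 markers, 7 fell without western diet replicate 1, 6 without western diet replicate 3 and 1 without the libraries low in Dbp; their part in the result was not tested.

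Igfbp3, whose product carries most circulating IGF-I and which in rat liver is made by non-parenchymal cells, rose. It had 34.0, 45.6 and 67.0 CPM on western diet, against 28.5, 37.2 and 46.5 CPM on chow. In 7 of 8 western diet livers the level was above the chow median, and western diet replicate 1 was the exception. The log2 difference was 0.37 ± 0.11 (edgeR adjusted p = 0.0098), with 47.1 ± 9.75 CPM on western diet and 36.5 ± 5.49 CPM on chow (SD, n = 8 and 9). Of the 3 transcripts of the circulating complex, Igfbp3 was thus higher, Igfals lower and Igf1 short of the threshold. Of the markers of non-parenchymal cells, summed CPM was 1121 to 1882 on western diet against 535 to 947 on chow for the 12 macrophage markers. For the 12 stellate cell markers it was 1034 to 1697 against 689 to 870. The sums of the 12 endothelial markers overlapped between the diets, at 560 to 1098 against 879 to 1136. None of these markers was at 0 in any library. Their part in the result was not tested.

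Igfbp2, a binding protein that leptin induces in mouse liver, fell. It had 180 to 458 CPM on western diet with a median of 323, against 410 to 557 CPM on chow with a median of 452. The chow livers lay close together, while western diet replicates 1 and 2, at 437 and 458 CPM, stayed among them and replicate 4 was lowest. The log2 difference was −0.51 ± 0.14 (edgeR adjusted p = 0.00618). Relative to other genes, its SD of log2 CPM exceeded that of 85.6% of tested genes within western diet and 37.8% within chow.

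Igfbp1, the binding protein that insulin represses, had the widest spread of the 10 genes among chow livers. It had 114, 162 and 333 CPM on western diet, against 16.3, 81.0 and 379 CPM on chow, a 2.92-fold range among western diet livers and a 23.2-fold range among chow livers. All 8 western diet livers lay above the chow median, and of the chow livers, replicates 1 and 3, at 323 and 140.1 CPM, lay within the western diet range and replicate 2, at 379 CPM, above it. The log2 difference was 0.54 ± 0.56 (95% interval −0.64 to 1.73, edgeR adjusted p = 0.446). It was 0.96 without chow replicate 2 and 0.86 without chow replicate 1, and did not pass in either fit (adjusted p = 0.139 and 0.214). Igfbp1 and Igfbp3 are neighbours on chromosome 11, 3539 bases apart. Western diet replicate 3 had the highest Igfbp1 of its diet, as it had for Ghr, Igf1 and Igfals, and the lowest Stat5b and Bcl6.

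**Figure D2:**
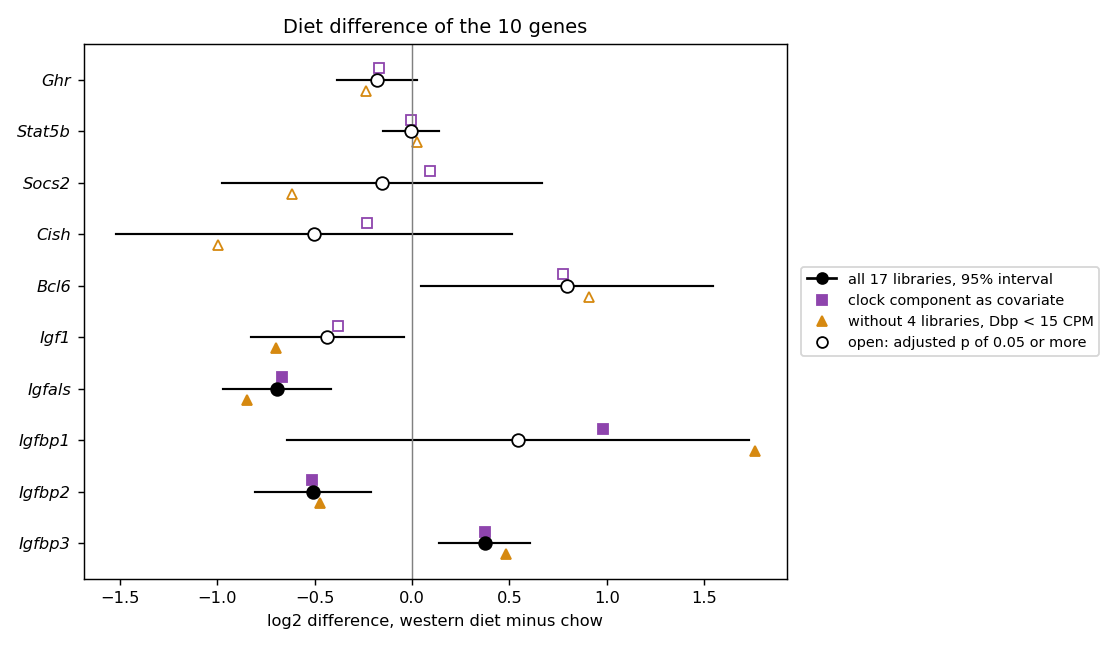
Log2 difference, western diet minus chow, of the 10 genes: circles with bars are the estimate and 95% interval with all 17 libraries, squares a fit with the clock component as covariate, triangles a fit without the 4 libraries with Dbp under 15 CPM, and filled symbols passed an adjusted p of 0.05. Igfals, Igfbp2 and Igfbp3 are filled in all 3 fits, Igfbp1 in both fits other than the first, Igf1 in the fit without those 4 libraries, and the bars of Socs2, Cish and Igfbp1 are the widest. The 4 libraries, chosen after the values were seen, include the 3 chow livers highest in Igfbp1 and lowest in Igf1.

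The chow livers highest in Igfbp1 and lowest in Socs2 and Igf1 were also low in Dbp, an output gene of the circadian clock. Dbp is known to follow the time of day. Dbp was at 10.8 CPM in western diet replicate 4 and at 28.6 to 88.8 CPM in the other 7 western diet livers, against 8.25 to 13.0 CPM in chow replicates 1, 2 and 3 and 46.2 to 203 CPM in the other 6 chow livers. In the 3 chow livers with little Dbp, Igfbp1 was at 140.1 to 379 CPM, Socs2 at 6.95 to 12.1 CPM and Igf1 at 461 to 649 CPM. In the 6 others Igfbp1 was at 16.3 to 82.2 CPM, Socs2 at 23.2 to 69.6 CPM and Igf1 at 818 to 1140 CPM, with no overlap in any of these genes. The 7 western diet livers with more Dbp had Igfbp1 at 114 to 333 CPM, all above those 6 chow livers, and Igfals at 74.8 to 124 CPM, all below the 146 to 211 CPM of the same 6. Igfals also split by Dbp within chow: the 3 chow livers with little Dbp had 106 to 134 CPM, overlapping those western diet livers. Cish was at 4.24 to 8.40 CPM in the same 3 and at 8.43 to 52.9 CPM in the 6 others. The division of the livers by Dbp was chosen after the values were seen. The share of all tested genes that separate between these smaller sets was not computed, so these separations are descriptions only.

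When the 4 libraries with Dbp under 15 CPM were left out, an alternative chosen after the values were seen, Igfbp1 rose by a log2 difference of 1.76 (edgeR adjusted p = 0.00269) and Igf1 fell by 0.70 (edgeR adjusted p = 0.0031). The 3 chow livers left out had the highest Igfbp1 and the lowest Igf1 of their diet. Larger differences in Igfbp1 and Igf1 thus follow from the choice of libraries, and their adjusted p values in this fit are no evidence. Igfals, Igfbp2 and Igfbp3 passed as before, and Cish (−0.999, adjusted p = 0.102), Socs2 (−0.61, adjusted p = 0.114) and Bcl6 (0.91, adjusted p = 0.133) did not in edgeR. With the first component of 17 clock genes as covariate, Igfbp1 rose by 0.98 (edgeR adjusted p = 0.00809), while Igf1 remained short of the threshold (−0.38, adjusted p = 0.0909). The component held 68.4% of the within-diet variance of those genes, and 4 of the 17 fell and 1 rose between the diets in edgeR. This was 29.4% called, below the 48.4% of all tested genes, of which 23.6% fell and 24.8% rose. Tef, Cry2 and Hlf, which encode circadian transcription factors and a repressor of the clock, fell by 0.76, 0.67 and 0.63 on the log2 scale, and the repressor Bhlhe40 rose by 0.72. The call of Tef was lost with library size alone (adjusted p = 0.0705), in limma-voom (0.05201) and without chow replicate 9 (0.0513), and that of Bhlhe40 without the 4 libraries low in Dbp (0.0815). Without those libraries 9 clock genes fell and 2 rose, and with the clock covariate 7 fell and 3 rose. Dbp is itself among the 17 clock genes, and the component is built from all 17. These counts therefore depend on how the settings were defined and are no evidence about the clock genes. In limma-voom, without the pancreatic libraries and without chow replicate 1, 2 or 9, 2 clock genes rose. The labels give no hour of death, and beyond these fits the part of the clock genes in the diet differences was not tested. Within a diet, the relation of each of the 10 genes to Dbp was computed over the 8 western diet livers and over the 6 chow livers with more Dbp, 20 relations in all, and none passed the adjustment. The lowest p was that of Igfbp1 on western diet (r = −0.84, p = 0.0116, adjusted p = 0.232; rho = −0.83, p = 0.0154, exact permutation, n = 8), and r was −0.61 without the 2 livers farthest from the median of Dbp. Cish had r = −0.64 with Dbp on western diet (exact permutation p = 0.0801, n = 8; rho = −0.55, p = 0.171; r = −0.71 without the 2 farthest livers). In the 6 chow livers it had r = 0.78 (exact permutation p = 0.0569, n = 6; rho = 0.89, p = 0.0333, adjusted p = 0.222; r = 0.93 without the 2 farthest), and the difference between the diets was not tested. Among the same 6 chow livers Igfbp1 had r = −0.093 with Dbp (exact permutation p = 0.853, n = 6, rho = −0.029). Without the 2 farthest livers r was 0.99 (n = 4), so the r over these 6 depended on 2 livers. The 3 chow livers left out of these relations had the least Dbp and the highest Igfbp1 of their diet. On western diet, replicate 4, also low in Dbp, was kept, so the r values of the diets are not comparable. The 6 chow livers cannot show whether Igfbp1 followed Dbp over all chow livers.

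**Figure D3:**
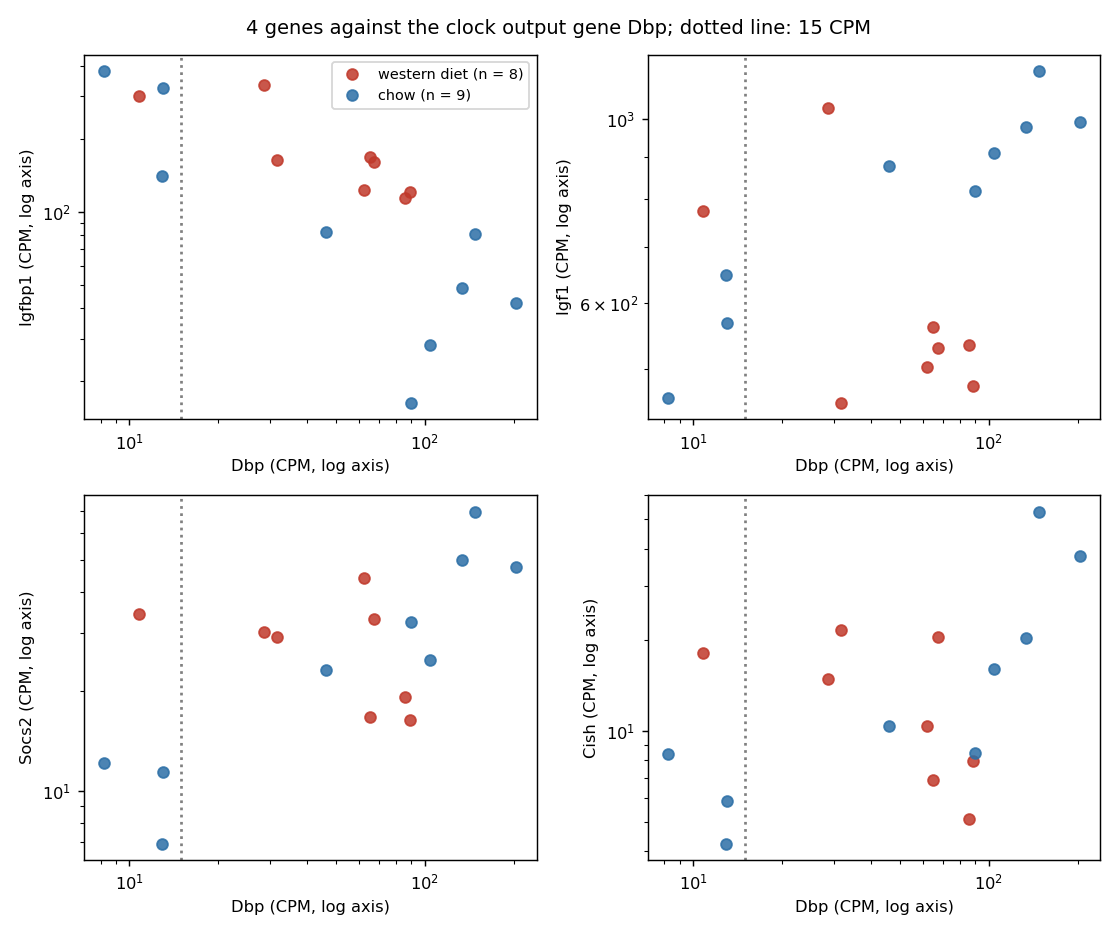
Igfbp1, Igf1, Socs2 and Cish (CPM, log axes) against Dbp (CPM, log axis) in 8 western diet and 9 chow livers, 1 point per mouse, with a dotted line at 15 CPM of Dbp. To the left of the line are 1 western diet liver and 3 chow livers; among chow livers these 3 have the highest Igfbp1 and the lowest Igf1 and Socs2, and all western diet points have Igfbp1 at 114 CPM or more.

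The feedback genes and Igf1 rose and fell together between chow livers. Over the 9 chow livers, log2 CPM of Cish and Socs2 had r = 0.90 (exact permutation p = 0.0009755, adjusted p = 0.0234 over 24 relations; rho = 0.93, p = 0.0007496, adjusted p = 0.008995), and r was 0.87 without chow replicates 8 and 9. Socs2 and Igf1 had r = 0.86 (exact permutation p = 0.00308, adjusted p = 0.03697, n = 9; rho = 0.87, p = 0.00451, adjusted p = 0.0361), and r was 0.897 without chow replicates 3 and 8. Cish and Igf1 passed by rank (rho = 0.93, exact permutation p = 0.0007496, adjusted p = 0.008995) and not by Pearson's r (0.78, p = 0.0135, adjusted p = 0.108), with r = 0.67 without the 2 farthest livers; without chow replicate 2, r was 0.905 and passed (adjusted p = 0.0189). Single livers decided the Pearson calls. Without chow replicates 1, 3, 5, 6 or 8 in turn the relation of Cish and Socs2 had an adjusted p of 0.0595 to 0.119, and without replicates 1, 4, 5, 6, 7, 8 or 9 that of Socs2 and Igf1 0.0735 to 0.1496. Over all 9 such fits r lay between 0.87 and 0.96 for Cish and Socs2 and between 0.82 and 0.92 for Socs2 and Igf1.

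In western diet livers none of the 12 relations passed the adjustment. Cish and Socs2 had r = 0.69 (exact permutation p = 0.0704, adjusted p = 0.161, n = 8; rho = 0.50, p = 0.216), 0.44 without the 2 farthest livers, and Socs2 and Igf1 had r = 0.24 (exact permutation p = 0.597; rho = 0.19, p = 0.665; r = 0.036 without the 2 farthest). The western diet livers thus gave no passing counterpart to the chow relations, and the difference in r between the diets was not tested. Cish and Bcl6 had r = −0.79 (exact permutation p = 0.0255, adjusted p = 0.122; rho = −0.76, p = 0.0368), −0.67 without the 2 farthest, and −0.91 without western diet replicate 3 (adjusted p = 0.0286). Igf1 and Igfbp2 had r = −0.71 on western diet (exact permutation p = 0.0526, adjusted p = 0.161; rho = −0.79, p = 0.0279), and −0.43 without replicates 3 and 4. On chow they had r = 0.55 (exact permutation p = 0.129, adjusted p = 0.258; rho = 0.48, p = 0.194), and 0.55 without the 2 farthest livers. Igf1 and Igfals had r = 0.66 on western diet (exact permutation adjusted p = 0.161; rho = 0.67, p = 0.0831; 0.397 without the 2 farthest) and r = 0.74 on chow (adjusted p = 0.122; rho = 0.77, p = 0.0214; 0.71 without the 2 farthest). Bcl6 and Cyp2a4, a female-biased gene, had r = −0.18 on western diet (exact permutation p = 0.658; rho = −0.095) and 0.10 on chow (p = 0.791; rho = 0.35).

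**Figure D4:**
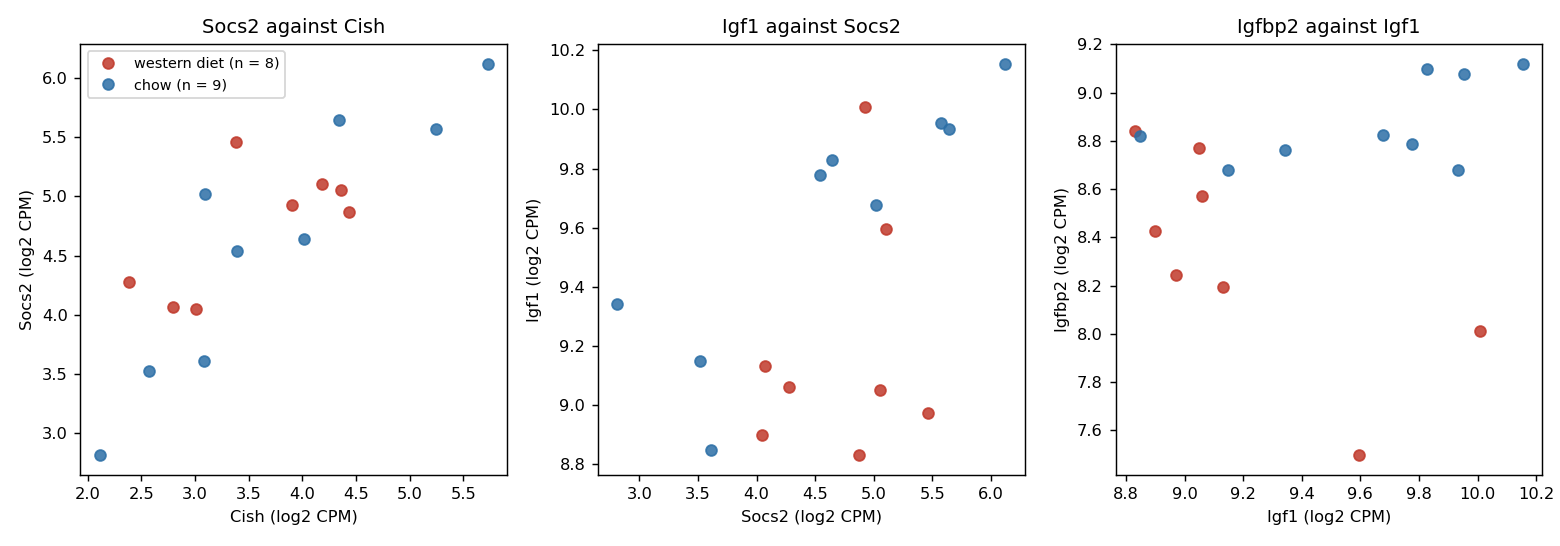
Log2 CPM of Socs2 against Cish, of Igf1 against Socs2 and of Igfbp2 against Igf1 in 8 western diet and 9 chow livers, 1 point per mouse. Chow points rise along both of the first panels (r = 0.90 and 0.86), western diet points form a shorter cloud (r = 0.69 and 0.24), and in the third panel western diet points slope downward (r = −0.71).

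Genes that growth hormone pulses keep high in male liver were lower on western diet, although Stat5b and its feedback genes did not pass. Of 20 tested genes of a male-biased list, 15 fell and none rose in edgeR, against 23.6% of all tested genes falling; the count that fell was also 15 in DESeq2, in limma-voom and with the clock covariate, and 1 gene rose with library size alone. The median log2 difference was −1.14, 10 of the 20 fell at least 2-fold (1.14% of all tested genes did), and in 7 of 20 every western diet liver lay below every chow liver (5.05% of all tested genes). Mup12, a major urinary protein that carries pheromones, had 1.61, 6.51 and 13.4 CPM on western diet, against 60.9, 90.4 and 118 CPM on chow (log2 difference −3.48 ± 0.32, edgeR adjusted p = 2.57e-07). Hsd3b5, a male-specific steroid reductase, had 1.27, 5.56 and 13.2 CPM on western diet, against 6.22, 32.4 and 165 CPM on chow (−3.06 ± 0.72, edgeR adjusted p = 0.00253). Mup1 had 0.921, 6.07 and 10.8 CPM on western diet, against 27.1, 50.8 and 63.3 CPM on chow (−2.90 ± 0.31). Western diet replicate 5, a library with pancreatic transcripts, was lowest in all 3 genes, and without it and chow replicate 2 again 15 of 20 fell.

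The male-biased genes did not move as a block. Mup20, the urinary protein known as darcin, was the only member with a positive difference, at 597 CPM on western diet and 513 CPM on chow on average (0.22 ± 0.12, edgeR adjusted p = 0.139). Cyp2d9, a steroid hydroxylase, fell by 0.48 on the log2 scale, with 505, 679 and 891 CPM on western diet, against 756, 977 and 1241 CPM on chow. Mup1, Mup7 and Mup12 are near-identical, and how reads were divided among them is uncertain. Falls of Mup1 and Mup12 in these mice were known when the list was drawn up, so its count is not independent evidence of its direction.

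Female-biased genes moved both ways. Of 21 listed genes 9 passed the low count filter and were tested, and of these 5 rose and 2 fell, against 24.8% and 23.6% of all tested genes; the others had at most 38 counts in any library, so genes high in neither diet are missing from these counts. Ntrk2, a neurotrophin receptor, had 62.9, 104 and 164 CPM on western diet, against 2.05, 8.25 and 16.6 CPM on chow (log2 difference 3.68 ± 0.31, edgeR adjusted p = 7.31e-08), with no overlap. Cyp2a4, a steroid hydroxylase, had 8.65, 22.4 and 161 CPM on western diet, against 1.56, 2.42 and 3.58 CPM on chow (4.44 ± 0.62), and shares near-identical sequence with Cyp2a5. Atp6v0d2, a proton pump subunit also made by macrophages, rose 3.15-fold. The 2 that fell were Acot3 (−3.60 ± 0.30) and Cyp4a10 (−0.89 ± 0.11), which are also known targets of the fatty acid receptor PPARA in mice; Acot3 has a near copy in Acot1. Cux2, a female-specific repressor in mouse liver, stayed at 2 to 8.5 counts on western diet and 5 to 20 counts on chow and was not tested.

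**Figure D5:**
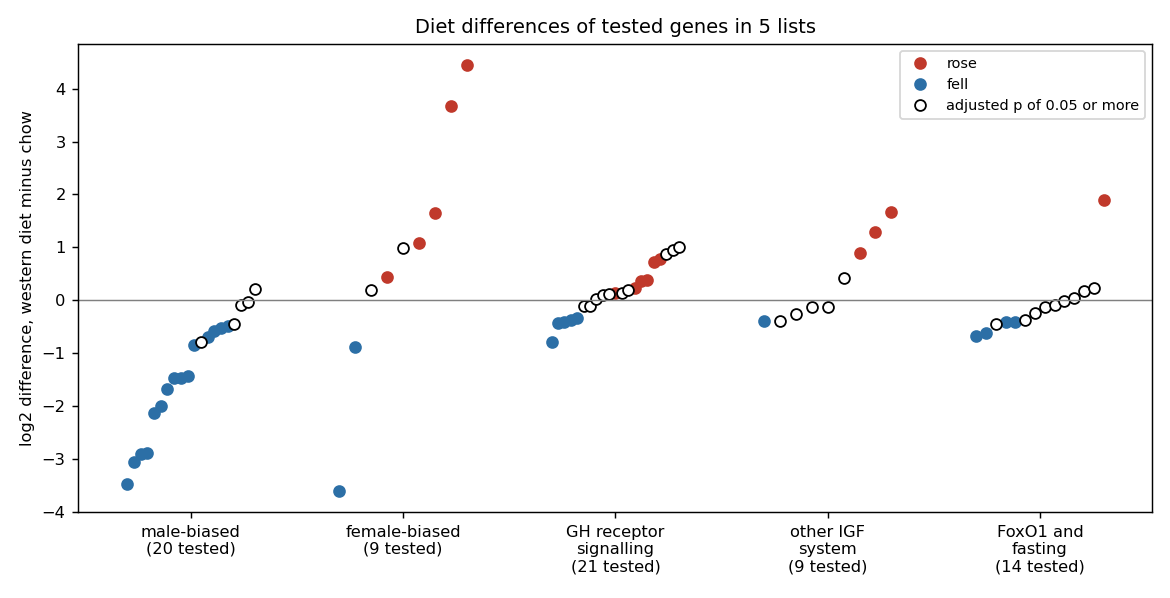
Log2 difference, western diet minus chow, of each tested gene in 5 lists of related genes, 1 point per gene ordered by its value; red points rose, blue points fell and open points had an adjusted p of 0.05 or more. In the male-biased list 15 of 20 points are blue and none is red, the female-biased list holds points at both ends, and the other 3 lists lie mostly within 1 log2 unit of 0.

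Among the other genes of the receptor pathway, 6 of 21 rose and 5 fell in edgeR, with a median log2 difference of 0.14. The 52.4% called was near the 48.4% of all tested genes. With library size alone, which shifts the median of all tested genes to 0.12, 11 of the 21 rose and 4 fell, as did 4485 and 1615 of the 13204 tested genes. Stat5a, the close relative of Stat5b that is more abundant outside hepatocytes, rose to 42.1 ± 8.15 CPM on western diet, against 32.7 ± 3.80 CPM on chow (SD, n = 8 and 9; log2 difference 0.37 ± 0.11, edgeR adjusted p = 0.0079). Jak2, the kinase bound to the receptor, was at 48.9 ± 7.69 CPM on western diet and 44.5 ± 6.91 CPM on chow (edgeR adjusted p = 0.262). The adaptor Grb10 rose by 0.78 ± 0.19 and the blood cell phosphatase Ptpn6 by 0.38 ± 0.083 in log2 (edgeR adjusted p = 0.00245 and 9.62e-04). Socs3, an inhibitor that cytokines induce, had 19.3, 24.4 and 129 CPM on western diet, against 13.6, 17.8 and 37.1 CPM on chow, with the highest value in western diet replicate 4 (0.96 ± 0.41, edgeR adjusted p = 0.0629); it passed without western diet replicate 1, 2 or 7 or chow replicate 9 (adjusted p = 0.0431 to 0.0462).

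The genes that fell most in this list also serve the insulin receptor. Irs2, an insulin receptor substrate, fell by 0.80 on the log2 scale (SE 0.21, edgeR adjusted p = 0.00421), Irs1 by 0.44 (SE 0.16, adjusted p = 0.0298) and the phosphatase Ptpn11 by 0.41 (SE 0.063, adjusted p = 2.22e-05), with no overlap between the diets in Ptpn11. Irs1 no longer passed without western diet replicate 4, 5, 6, 7 or 8 or chow replicate 7 (edgeR adjusted p = 0.0527 to 0.0631). The insulin receptor Insr had 193, 247 and 279 CPM on western diet, against 248, 333 and 369 CPM on chow, and fell by 0.40 (SE 0.085, edgeR adjusted p = 6.89e-04). Of 14 genes of FoxO1 and fasting, which share the insulin control of Igfbp1, 1 rose and 4 fell in edgeR, 35.7% against the 48.4% of all tested genes. Pck1, the rate-limiting enzyme of glucose synthesis, fell by 0.67, Angptl4 by 0.62 and Insig2 by 0.41 on the log2 scale. Pck1, Angptl4 and Insig2 had an edgeR adjusted p of 6.75e-04, 0.00151 and 0.0149, and the call of Insig2 was lost without the 4 libraries low in Dbp (0.158) and without both libraries with pancreatic transcripts (0.0506).

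Of the other IGF genes 9 of 17 were tested, and 3 rose and 1, Insr, fell in edgeR, 44.4% called against 48.4% of all tested genes. Igfbp7, a low-affinity binding protein of vessel and stellate cells, had 158, 238 and 276 CPM on western diet, against 104, 123 and 141 CPM on chow (log2 difference 0.89 ± 0.093, edgeR adjusted p = 2.85e-07), with no overlap between the diets. Igf2bp2, which binds Igf2 RNA, rose 3.16-fold without overlap and Htra1, a protease that cleaves IGF-binding proteins, rose 2.44-fold. The IGF-I receptor Igf1r was at 14.9 ± 3.53 CPM on western diet and 11.3 ± 4.50 CPM on chow (0.42 ± 0.19, edgeR adjusted p = 0.0797). Without chow replicate 2, the chow liver highest in Igf1r and in pancreatic transcripts, Igf1r rose by 0.60 (edgeR adjusted p = 0.002335). It also passed without both libraries with pancreatic transcripts (0.52), without the 4 libraries low in Dbp (0.55), with library size alone (0.55) and in limma-voom (0.51). Igf2, a fetal growth factor that is silent in adult mouse liver, had 4 to 13.5 counts on western diet and 5 to 15.5 counts on chow.

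For each of the 10 genes, the tested genes whose deviations from the diet means were most alike over the 17 livers were sought among 13020 genes whose log2 CPM averaged 1 or more. These correlations are descriptions without a test, and the points share libraries, depth and scaling. Igfals was followed most closely by Slc38a3 (r = 0.92), a glutamine transporter, and S1pr5 (0.85), and Igf1 by Gnpnat1 (0.92) and C8b (0.88), a complement component. Ghr was closest to Impa1 (0.90) and to Otc (0.88), a urea cycle enzyme. Socs2 was closest to Etohd2 (0.89) and Pold4 (0.87), Cish to 2210408F21Rik (0.86) and the liver transcription factor Onecut1 (0.85), and Bcl6 to Cers4 (0.83) and Adamtsl4 (0.79). Igfbp1 was closest to Tmem37 (0.88) and Neu3 (0.87), Igfbp2 to Hyi (0.82) and Sgk2 (0.82), Stat5b to Llgl1 (0.85) and Plekhm1 (0.84), and Igfbp3 to Gcc1 (0.76) and Pln (0.75), the loosest of these likenesses.

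On the mouse assembly GRCm38, also called mm10, Ghr spans 3317755 to 3583352 of chromosome 15, Stat5b 100780731 to 100859004 of chromosome 11 and Socs2 95383903 to 95417321 of chromosome 10. Cish spans 107296659 to 107302784 of chromosome 9, Bcl6 23965050 to 23988866 of chromosome 16 and Igf1 87858265 to 87937047 of chromosome 10. Igfals spans 24877844 to 24882011 of chromosome 17, Igfbp2 72824480 to 72852474 of chromosome 1, Igfbp1 7197787 to 7202546 of chromosome 11 and Igfbp3 7206086 to 7215498 of the same chromosome. These spans run over exons and introns alike. In 5 of the 10, namely Ghr, Socs2, Bcl6, Igf1 and Igfals, the span overlaps a non-coding gene of the RefSeq annotation, such as Igf1os at Igf1. None of these non-coding genes is in the count table. Overlap of exons was not examined and the strand setting is not stated, so whether any reads were shared is not known.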

How the data were processed

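The authors deposited 1 table per library of unscaled expected counts per gene symbol, recorded in steps of 0.5. The submitters' processing notes name mm10 and the tools STAR 2.4.1c, HOMER, FastQC and MultiQC; strand setting and annotation release: not given in the sources used here. Groups follow the treatment field, since the source name reads western diet for every sample. Of 24940 genes, 3 had no value and were left out. Values were rounded to whole counts, filtered with filterByExpr and fitted with edgeR 4.0.16 (R 4.3.3): TMM factors, robust quasi-likelihood fits on diet alone, prior count 0.125, two-sided tests, Benjamini-Hochberg adjustment over 13204 genes. SEs were obtained by dividing the log2 coefficient by the root of the F statistic. CPM use TMM-scaled library sizes. DESeq2 1.42.0 and limma-voom (limma 3.58.1) were alternatives. Relations used log2 CPM (prior count 0.5) with all 40320 or 362880 orders of the livers, in Python 3.11.15. Positions came from a RefSeq table of GRCm38.p6.

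The 10 genes and all lists were chosen with earlier results of these data known. Genes of the lists were named if Jak2, Stat5a, Socs3, Igf1r, Igf2, Insr, Cux2 or Cyp2a4, or if among the 3 largest called rises or falls of their list; Mup20, Cyp2d9, Alb, Hnf4a and Serpina1a were chosen after their values were seen. Some genes that this rule names are not reported here. Libraries of a diet differed well beyond sampling noise (chi-square per degree of freedom of at least 3.76), so each counted as 1 mouse.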

Additional observations from a re-analysis of the deposited data

How the results depend on the processing

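No paired analysis was possible because replicate numbers do not tie mice across the diets. Igfals, Igfbp2 and Igfbp3 kept direction and call under every alternative run. The number of the 10 genes that rose was 2 with library size alone, with the clock covariate and without the 4 libraries under 15 CPM of Dbp, and 1 to 2 with 1 library left out. Among all tested genes, 4485 of 13204 rose with library size alone, 3398 of 13204 with the clock covariate and 3210 of 13310 without those 4 libraries. Leaving out those libraries, and the relations to Dbp, were chosen after seeing the data. With library size alone, 11 receptor signalling, 1 male-biased and 2 FoxO1 and fasting genes rose, Bcl6 passed at 0.94 and Stat5b turned to 0.13; 4 female-biased genes fell in DESeq2 and with no low count filter. Stat5b was 0.028 without the low-Dbp libraries, and Socs2 turned to 0.053 in limma-voom and 0.094 with the clock covariate. Igf1 passed at −0.45 in DESeq2, −0.47 without the libraries with pancreatic transcripts and −0.70 without those low in Dbp. Igfbp1 passed at 0.98 with the clock covariate and 1.76 without the low-Dbp libraries. The low-Dbp libraries include the chow livers highest in Igfbp1 and lowest in Igf1. The calls of Igfbp1 and Igf1 without those libraries are therefore no evidence. The causes of the other shifts were not tested. Without the pancreatic libraries, r on chow was 0.905 for Cish and Igf1 and 0.0845 for Igfals and Igfbp3.

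With 1 library left out in turn, log2 differences ranged from −0.029 to 0.037 for Stat5b, −0.29 to 0.079 for Socs2 (positive without chow replicate 8), −0.65 to −0.13 for Cish (−0.13 without chow replicate 8), 0.62 to 0.99 for Bcl6, −0.59 to −0.36 for Igf1 and 0.37 to 0.96 for Igfbp1 (0.96 without chow replicate 2); 2 to 7 hepatocyte markers fell, and 0 to 1 male-biased genes rose. On western diet r ranged from −0.91 to −0.73 for Cish and Bcl6, −0.12 to 0.79 for Ghr and Igf1, −0.41 to 0.079 for Bcl6 and Cyp2a4 and −0.47 to 0.26 for Dbp and Ghr (0.26 without replicate 3, 0.090 without replicate 5). On chow it ranged from 0.87 to 0.96 for Cish and Socs2, 0.71 to 0.905 for Cish and Igf1, 0.82 to 0.92 for Socs2 and Igf1, −0.16 to 0.087 for Igfals and Igfbp3 and −0.042 to 0.29 for Bcl6 and Cyp2a4. The lowest deposited value of the 10 genes was 22.5 counts.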
